A study of Mus musculus with 2 samples.

Results

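The genes of oxidative phosphorylation, in the nucleus and in the mitochondrial genome, were described in single-cell RNA sequencing of mouse splenic regulatory T cells (Tregs), the CD4 T cells that restrain immune responses. Members were taken by symbol. On the nuclear side these were genes starting with Nduf, Uqcr, Cox4i, Cox5, Cox6, Cox7, Cox8 or Atp5, with Sdha, Sdhb, Sdhc, Sdhd and Cycs, and on the mitochondrial side the mt-Nd, mt-Co, mt-Atp and mt-Cytb genes. A member needed 30 or more raw UMIs (unique molecular identifiers, tags that count captured RNA molecules) over both libraries. Of 106 symbols named this way 98 passed, 85 nuclear and 13 mitochondrial, among 28692 genes in the files, of which 9394 reached the same minimum and are called the genes tested below. Atp5s, with 32 raw UMIs, lay just inside the minimum and Cox6b2, with 27, just outside it. The prefixes take in genes that are not subunits: the Ndufaf genes code for complex I assembly factors, and Cox7a2l, Atp5s and Atp5sl are kept apart as related genes. Ndufa4, named for complex I, is counted with complex IV, where its protein is now placed. Cyc1, a complex III subunit, has a symbol outside the prefixes and is not a member.

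The PPARg-low library held CD4 Tregs from the spleens of male B6 Pparg-Tdt.Foxp3-Gfp mice aged 8 weeks, and the PPARg-negative library held CD4 Tregs from spleens of mice of the same strain, sex and age. The strain carries reporters for Pparg, which codes for a nuclear receptor of lipid metabolism, and for Foxp3, the factor that defines Tregs. Each library was 1 pool of 2 or 3 mice run on the Chromium 3′ v2 platform, and the deposited files of the PPARg-low library carry the tag pos where the label says low. After barcodes with over 10% of UMIs from mt- genes were left out, 1619 of 1992 PPARg-low barcodes and 2633 of 2902 PPARg-negative barcodes remained, called kept cells below, with 2901710 and 5897260 UMIs. Their median was 1517 UMIs per PPARg-low cell and 2171 UMIs per PPARg-negative cell. The 13 mitochondrial members are the only mt- genes with UMIs in the files, so this filter selects on members, and values over all barcodes are given beside those over kept cells. Pparg had 43 UMIs in kept PPARg-low cells and 0 in kept PPARg-negative cells, a ratio of 29.1 with a floor of 3 UMIs entered in place of 0. Foxp3 had 100 UMIs (34.5 CPM) in PPARg-low cells and 146 UMIs (24.8 CPM) in PPARg-negative cells, and all 8 genes of the Treg marker list were detected in each library, at a summed 8126 CPM in PPARg-low cells and 3870 CPM in PPARg-negative cells. CPM is UMIs per 1000000 UMIs of a library's kept cells unless another set is named.

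With 1 library per group no test was possible and no p-value is given. Each ratio is PPARg-low over PPARg-negative CPM with an exact 95% interval that covers counting error only, not differences between pools, sorts or libraries. A gene was called higher or lower where its ratio was 1.5 or more in either direction and its interval lay on the same side of 1. The libraries also differed as a whole in ways that touch every ratio below. Ribosomal protein genes took 22.2% of UMIs in kept PPARg-low cells and 35.5% in kept PPARg-negative cells, and the median log2 ratio of the 9394 genes tested was 0.29. Cells with under 20% ribosomal protein UMIs, called ribosome-poor below, made up 58.7% of kept PPARg-low cells and 23.3% of kept PPARg-negative cells. Results are therefore also given within ribosome-poor cells and within the remaining ribosome-rich cells.

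Oxidative phosphorylation is the step in which mitochondria turn the energy of nutrients into ATP. Complexes I and II pass electrons from NADH and succinate to ubiquinone, complex III hands them on to cytochrome c, complex IV gives them to oxygen, and complexes I, III and IV pump protons that ATP synthase then uses. All of complex II and most subunits of the others are coded in the nucleus, translated in the cytosol and imported, while a small core is transcribed from mitochondrial DNA as long polycistronic RNAs and translated inside the organelle. Tregs are known to rely on this respiration more than other activated CD4 T cells do, and disturbing complex III in mouse Tregs impairs their suppressive function.

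Sequence shows how the mitochondrial members are counted. On mm10 chrM, mt-Atp8 and mt-Atp6 share 43 bases, at chrM:7927-7969, and mt-Nd4l and mt-Nd4 share 7 bases, at chrM:10167-10173. The shared bases are read here from the GENCODE M21 transcripts, with the start codon of the downstream gene and the stop codon of the upstream gene in capitals.
mt-Atp8 and mt-Atp6: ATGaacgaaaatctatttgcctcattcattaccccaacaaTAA
mt-Nd4l and mt-Nd4: ATGcTAA
Each of these pairs is carried on 1 mRNA, so the split of its UMIs between the genes of the pair is uncertain, and mt-Nd6, on the opposite strand, overlaps the end of mt-Nd5. Among the nuclear members, 4 overlap another gene of the files on the same strand in that annotation and 25 on the opposite strand. Ndufa13, for one, overlaps Yjefn3, so counts of such genes are uncertain. Promoters are shown for Cox7a2l and Ndufb4, with ratios below 1, and for Sdhd and Sdha of complex II, with ratios above 1, on which the nuclear results below turn. Each runs 300 bases around the RefSeq start of the gene on GRCm38.p6, all on the minus strand, at chr17:83514284-83514583, chr16:37654319-37654618, chr9:50603800-50604099 and chr13:74350191-74350490. Capitals mark matches to the core motif of NRF1 (GCGCA and GCGC with any base between them), a factor known to bind promoters of respiratory chain genes.
Cox7a2l: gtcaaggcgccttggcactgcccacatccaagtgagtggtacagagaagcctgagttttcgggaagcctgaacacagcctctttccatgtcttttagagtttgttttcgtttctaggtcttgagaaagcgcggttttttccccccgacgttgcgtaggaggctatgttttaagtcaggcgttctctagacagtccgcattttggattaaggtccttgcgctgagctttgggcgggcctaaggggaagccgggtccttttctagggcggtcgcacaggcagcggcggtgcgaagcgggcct
Ndufb4: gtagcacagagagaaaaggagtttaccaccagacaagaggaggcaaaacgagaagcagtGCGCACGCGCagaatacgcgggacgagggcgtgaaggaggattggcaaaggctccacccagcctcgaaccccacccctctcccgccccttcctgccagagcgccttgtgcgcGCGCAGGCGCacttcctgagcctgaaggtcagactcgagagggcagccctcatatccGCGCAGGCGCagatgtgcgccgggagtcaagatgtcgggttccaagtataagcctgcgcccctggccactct
Sdhd: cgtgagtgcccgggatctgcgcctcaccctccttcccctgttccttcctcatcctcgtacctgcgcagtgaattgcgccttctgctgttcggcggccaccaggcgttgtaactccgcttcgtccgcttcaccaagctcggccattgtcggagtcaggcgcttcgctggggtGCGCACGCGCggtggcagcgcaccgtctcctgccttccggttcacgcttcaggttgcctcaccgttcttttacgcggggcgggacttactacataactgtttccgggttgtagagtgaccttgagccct
Sdha: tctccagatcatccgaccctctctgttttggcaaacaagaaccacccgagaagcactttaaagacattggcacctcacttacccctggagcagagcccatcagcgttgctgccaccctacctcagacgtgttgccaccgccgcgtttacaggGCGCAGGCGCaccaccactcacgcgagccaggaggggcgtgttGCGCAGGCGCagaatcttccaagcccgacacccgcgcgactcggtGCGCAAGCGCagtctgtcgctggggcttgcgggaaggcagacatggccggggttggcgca
The Sdhd window holds 1 match, the Sdha window 3, the Ndufb4 window 3 and the Cox7a2l window none. The Sdhd window also takes in the start of Timm8b, on the opposite strand from chr9:50603910, and its match lies within that gene. The match therefore cannot be assigned to Sdhd alone.

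Taken as groups, the nuclear and the mitochondrial members differed. The 85 nuclear members together held 20434 CPM in PPARg-low cells and 20655 CPM in PPARg-negative cells, a log2 ratio of -0.016 with an interval that just missed 0 (ratio 0.989, 0.980 to 0.999). The 13 mitochondrial members held 40865 CPM in PPARg-low cells and 27788 CPM in PPARg-negative cells, a ratio of 1.47 (1.46 to 1.48). Nuclear members had a median log2 ratio of 0.012 and mitochondrial members one of 0.47, beside 0.29 for all genes tested. Among the nuclear members 2 were called higher, where 24.4% of all genes tested were, and 1 was called lower, where 4.42% of all genes tested were. Of the mitochondrial members 2 were called higher and 0 lower, and all 13 had a log2 ratio above 0.

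Over all barcodes the gap between the groups of genes was wider. The nuclear members held 19660 CPM in the PPARg-low library and 20345 CPM in the PPARg-negative library (ratio 0.966, 0.957 to 0.976), and the mitochondrial members 49680 CPM in the PPARg-low library and 31409 CPM in the PPARg-negative library (ratio 1.58, 1.57 to 1.59). The same 3 nuclear members were called as in kept cells, against 24.8% of genes tested called higher and 4.6% called lower over all barcodes. Mitochondrial members called higher numbered 7 of 13, namely mt-Co1, mt-Co2, mt-Co3, mt-Atp6, mt-Nd2, mt-Nd3 and mt-Nd4. The barcodes left out, with over 10% mt- UMIs, were 18.7% of PPARg-low barcodes and 9.27% of PPARg-negative barcodes.

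Within ribosome-poor and ribosome-rich cells the mitochondrial ratios were closer to 1. In ribosome-poor cells the mitochondrial members held 60440 CPM in the PPARg-low library and 60357 CPM in the PPARg-negative library, a ratio of 1.0 (0.989 to 1.01), and in ribosome-rich cells 27931 CPM in the PPARg-low library and 23710 CPM in the PPARg-negative library, a ratio of 1.18 (1.17 to 1.19). The nuclear members held 15729 CPM in ribosome-poor PPARg-low cells and 14541 CPM in ribosome-poor PPARg-negative cells (ratio 1.08, 1.06 to 1.11), and 23542 CPM in ribosome-rich PPARg-low cells and 21420 CPM in ribosome-rich PPARg-negative cells (ratio 1.10, 1.09 to 1.11). The nuclear sum was thus higher in PPARg-low cells within each class and slightly lower over both classes together. In ribosome-poor cells 1 member was called higher and 0 lower, where 5.62% and 4.82% of genes tested were, and in ribosome-rich cells 5 were called higher and 0 lower, where 17.6% and 3.69% were. None of the 13 mitochondrial members was called in either class.

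The total behind CPM holds the ribosomal protein UMIs, whose share differed between the libraries. Scaled per 1000000 UMIs of genes that are neither mt- nor ribosomal protein genes, kept cells had 27721 nuclear member UMIs in the PPARg-low library and 33486 in the PPARg-negative library, a ratio of 0.828 (0.820 to 0.836). On that scale the mitochondrial ratio was 1.23 (1.22 to 1.24) over all kept cells. Within classes it was 0.984 (0.971 to 0.996) in ribosome-poor cells and 1.02 (1.01 to 1.04) in ribosome-rich cells. The nuclear ratio on that scale was 1.06 (1.04 to 1.09) in ribosome-poor cells and 0.956 (0.945 to 0.967) in ribosome-rich cells. Nuclear members called lower then numbered 5 (Uqcrfs1, Ndufa6, Ndufb4, Atp5o and Cox7a2l), where 8.1% of genes tested were, and Atp5s was called higher, where 13% were. Relative to the median of all genes tested the same 6 members were called, against 12.1% of genes tested called higher and 8.77% called lower. The sign of the summed nuclear difference therefore depends on the total and on the class of cells. So does the size of the summed mitochondrial difference, which was small within each class on that scale. Cox7a2l was below 1 on every scale and in each class.

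**Figure D1:**
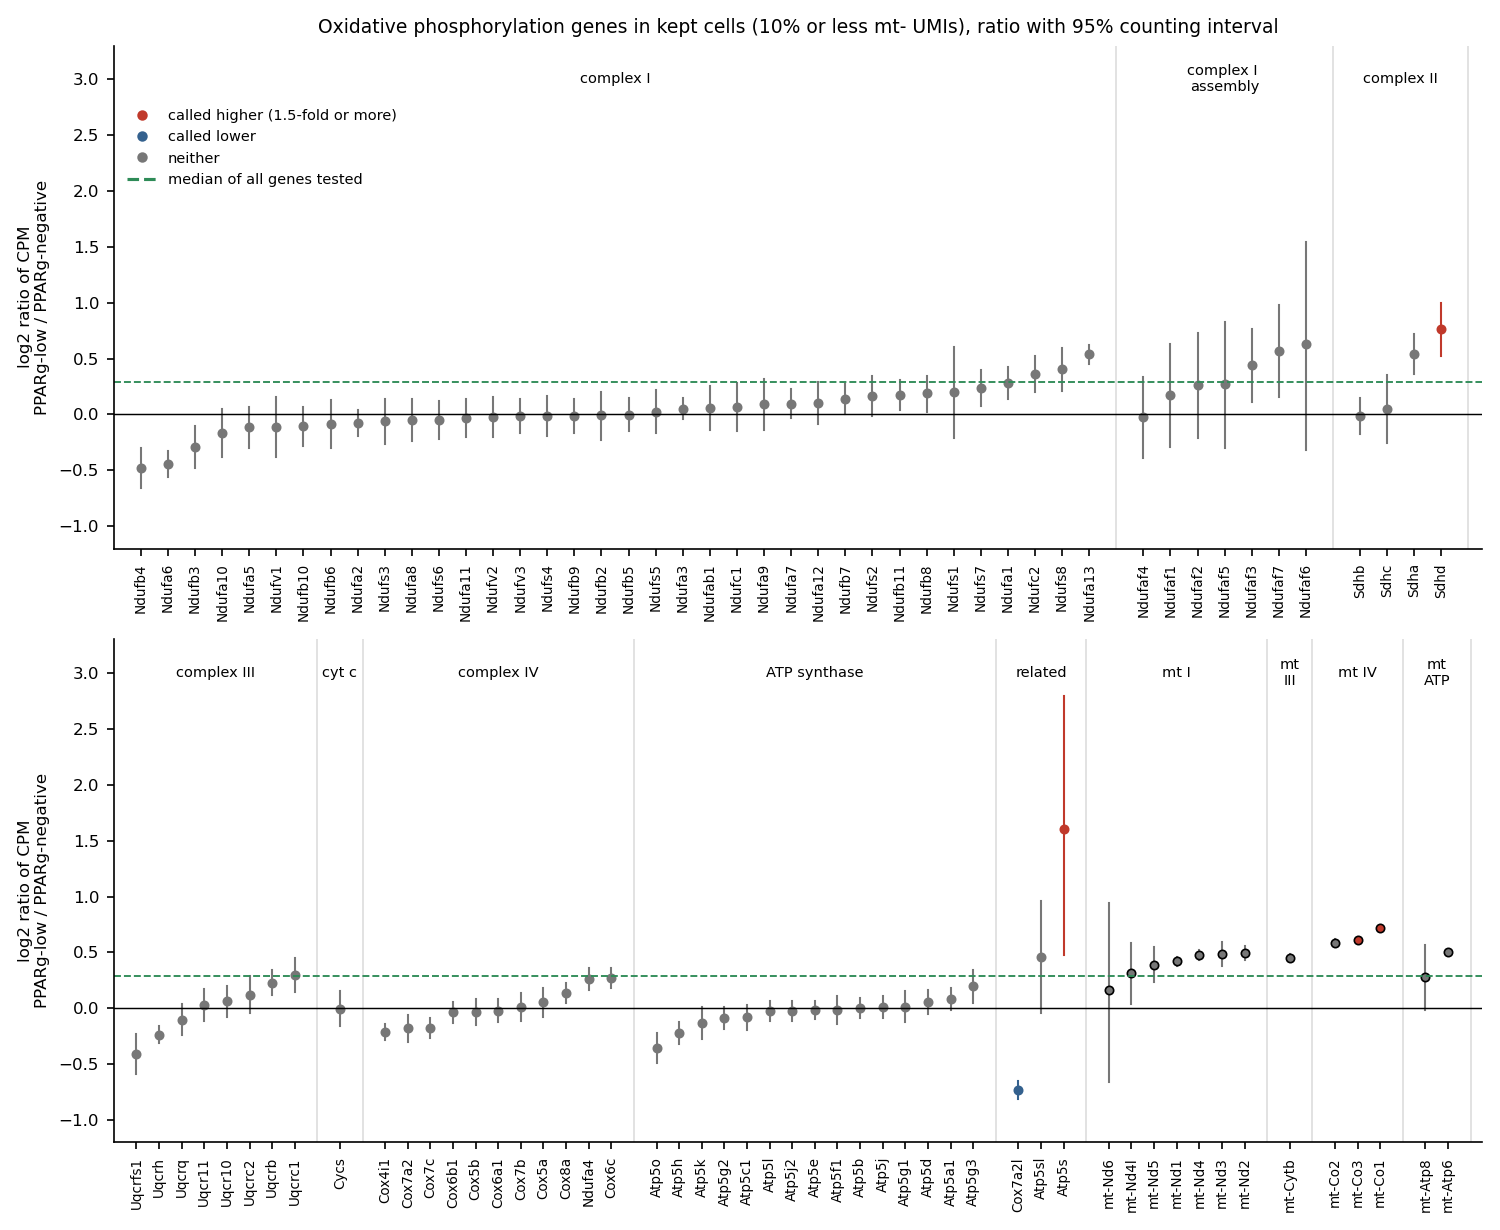
Each point is 1 member, placed by its log2 ratio of CPM (PPARg-low over PPARg-negative) in kept cells, with a bar for the 95% counting interval, grouped by complex, with black rims on the mitochondrial members. Nuclear members gather around 0, below the dashed median of all genes tested at 0.29, with Cox7a2l lowest at -0.73, and all 13 mitochondrial members lie above 0.

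Among the mitochondrial members, those of complex IV had the highest ratios. mt-Co1, the catalytic subunit that reduces oxygen, had 7892 CPM in PPARg-low cells and 4794 CPM in PPARg-negative cells, a ratio of 1.65 (1.62 to 1.68). mt-Co3, another core subunit, had 8419 CPM in PPARg-low cells and 5500 CPM in PPARg-negative cells (ratio 1.53, 1.51 to 1.56). These were the members called higher, and mt-Co2, which takes electrons from cytochrome c, was just under the limit at 3574 CPM in PPARg-low cells and 2386 CPM in PPARg-negative cells (ratio 1.498). mt-Atp6, the proton channel subunit of ATP synthase, was the most abundant member in each library, at 9264 CPM in PPARg-low cells and 6539 CPM in PPARg-negative cells (ratio 1.42, 1.40 to 1.44). mt-Atp8, which shares its mRNA, had only 55.5 CPM in PPARg-low cells and 45.8 CPM in PPARg-negative cells, with an interval that held 1. mt-Cytb, the core of complex III, had 4415 CPM in PPARg-low cells and 3225 CPM in PPARg-negative cells (ratio 1.37, 1.34 to 1.40).

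The 7 mitochondrial genes of complex I had log2 ratios from 0.16 to 0.49. mt-Nd1 had 3030 CPM in PPARg-low cells and 2263 CPM in PPARg-negative cells, and mt-Nd4 had 2303 CPM in PPARg-low cells and 1660 CPM in PPARg-negative cells. Ratios of mt-Nd1, mt-Nd2, mt-Nd3, mt-Nd4, mt-Nd4l and mt-Nd5 were 1.34, 1.41, 1.40, 1.39, 1.24 and 1.31, each with an interval above 1. mt-Nd6, the lone member on the other strand, had 22 UMIs in PPARg-low cells and 40 in PPARg-negative cells, and its interval (0.633 to 1.93) held 1. In ribosome-poor cells the log2 ratios of the 13 members ran from -0.40 (mt-Nd6) to 0.06 (mt-Co1), with 5 above 0 and 8 below. In ribosome-rich cells they ran from -0.06 (mt-Nd5) to 0.37 (mt-Co1), with 11 above 0. The order of the 13 by CPM was the same in the libraries (Spearman's rho 1.0 over 13 genes in kept cells, which share their total).

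Complex I had 36 nuclear members, with 6224 CPM in PPARg-low cells and 5995 CPM in PPARg-negative cells (log2 ratio 0.05, median of its members -0.0049). None was called in kept cells. Ndufa13, an accessory subunit also known as Grim19, was the most abundant, with 657 CPM in PPARg-low cells and 453 CPM in PPARg-negative cells, and had the highest ratio, 1.45 (1.37 to 1.54). Its ratio was 1.28 (1.14 to 1.44) in ribosome-poor cells and 1.26 (1.17 to 1.36) in ribosome-rich cells. Ndufs8, an iron-sulfur subunit of the arm that faces the matrix, was next at 130 CPM in PPARg-low cells and 98.5 CPM in PPARg-negative cells (ratio 1.32, 1.16 to 1.51). Ndufa3 and Ndufa2, accessory subunits, differed little, with ratios of 1.04 (0.970 to 1.11) and 0.947 (0.874 to 1.02). At the other end Ndufb4 had 120 CPM in PPARg-low cells and 166 CPM in PPARg-negative cells (ratio 0.719, 0.634 to 0.813), and Ndufa6 had 286 CPM in PPARg-low cells and 388 CPM in PPARg-negative cells (ratio 0.737, 0.680 to 0.798). Within ribosome-rich cells these ratios were 0.882 for Ndufb4 and 0.920 for Ndufa6, each with an interval that held 1. Levels in ribosome-poor cells were scaled like CPM, but to a total that leaves out mt- and ribosomal protein UMIs. Ndufa6 was then at 174 in the PPARg-low library (165 UMIs) and 229 in the PPARg-negative library (121 UMIs). Ndufb4 was at 77.0 in the PPARg-low library (73 UMIs) and 92.6 in the PPARg-negative library (49 UMIs). Both were thus lower in ribosome-poor PPARg-low cells too, with no interval given here.

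The 7 complex I assembly factors were scarce, at 173 CPM summed in PPARg-low cells and 141 CPM in PPARg-negative cells (log2 ratio 0.30, 0.13 to 0.46). Ndufaf3 had 131 UMIs in PPARg-low cells and 196 UMIs in PPARg-negative cells, at 45.1 CPM in PPARg-low cells and 33.2 CPM in PPARg-negative cells (ratio 1.36, 1.08 to 1.70). It was called higher in ribosome-rich cells, at 1.72 (1.33 to 2.22), while in ribosome-poor cells it had 31 UMIs in the PPARg-low library and 22 in the PPARg-negative library, and a ratio of 0.801 with an interval of 0.449 to 1.45. Ndufaf7, a methyltransferase that acts on a complex I subunit, had a ratio of 1.49 (1.11 to 1.98) on 87 UMIs in PPARg-low cells and 119 UMIs in PPARg-negative cells. Ndufaf1 and Ndufaf4 had ratios of 1.13 and 0.985, with intervals that held 1.

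Complex II, the succinate dehydrogenase that also serves the tricarboxylic acid (TCA) cycle, was uneven among its 4 members. Sdhd, the smaller of the membrane anchors, had 93.7 CPM in PPARg-low cells and 55.3 CPM in PPARg-negative cells, on 272 UMIs in PPARg-low cells and 326 UMIs in PPARg-negative cells, and was called higher at 1.70 (1.44 to 2.0). Sdha, the flavoprotein that oxidises succinate, had 154 CPM in PPARg-low cells and 106 CPM in PPARg-negative cells, a ratio of 1.45 (1.29 to 1.65). Sdhb, the iron-sulfur subunit, had 168 CPM in PPARg-low cells and 170 CPM in PPARg-negative cells (ratio 0.991, 0.887 to 1.10), and Sdhc, the other anchor, 47.2 CPM in PPARg-low cells and 45.6 CPM in PPARg-negative cells (ratio 1.03, 0.836 to 1.28). The members with differing ratios are thus the flavoprotein and 1 anchor. In ribosome-rich cells Sdhd was called at 1.79 (1.47 to 2.18) and Sdha at 1.5 (1.29 to 1.75). In ribosome-poor cells Sdhd had a ratio of 1.17 (0.834 to 1.66) and Sdha one of 0.938 (0.741 to 1.19). The Sdhd call was lost with a total that leaves out mt- and ribosomal protein UMIs, where the log2 ratio of the summed complex II was 0.042, and relative to the median of all genes tested, where it was 0.0096. Sdhd starts 97 bases from Timm8b on the opposite strand in GENCODE M21, and Timm8b, which codes for a small protein of the import system, had 88.9 CPM in PPARg-low cells and 65.1 CPM in PPARg-negative cells (ratio 1.37, 1.16 to 1.60).

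Complex III had 8 nuclear members, with 2152 CPM in PPARg-low cells and 2210 CPM in PPARg-negative cells (log2 ratio -0.038), and none was called. Uqcrfs1, the Rieske iron-sulfur protein that passes electrons towards cytochrome c, had 120 CPM in PPARg-low cells and 160 CPM in PPARg-negative cells, a ratio of 0.753 (0.664 to 0.852). Its ratio was 0.728 (0.553 to 0.961) in ribosome-poor cells and 0.801 (0.689 to 0.929) in ribosome-rich cells, so it was below 1 in each class. Uqcrh, the hinge protein and the most abundant of the 8, had 674 CPM in PPARg-low cells and 793 CPM in PPARg-negative cells (ratio 0.850, 0.806 to 0.896), but 1.20 (1.02 to 1.42) in ribosome-poor and 1.01 (0.951 to 1.07) in ribosome-rich cells. Uqcrc1, a core protein, and Uqcrb had ratios of 1.23 (1.11 to 1.37) and 1.17 (1.08 to 1.27), and Uqcr10 one of 1.04 (0.949 to 1.15).

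Cycs, which codes for cytochrome c, the carrier between complexes III and IV and a trigger of apoptosis when released, had 174 CPM in each library, on 505 UMIs in PPARg-low cells and 1029 UMIs in PPARg-negative cells (ratio 0.997, 0.895 to 1.11). It was the single member called in ribosome-poor cells, at 145 CPM in the PPARg-low library and 79.2 CPM in the PPARg-negative library, on 167 UMIs in PPARg-low cells and 52 UMIs in PPARg-negative cells (ratio 1.83, 1.33 to 2.54). In ribosome-rich cells it had 193 CPM in the PPARg-low library and 186 CPM in the PPARg-negative library (ratio 1.04, 0.914 to 1.18).

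Complex IV had 11 nuclear members, with 4912 CPM in PPARg-low cells and 4923 CPM in PPARg-negative cells (log2 ratio -0.0033), and none was called. Cox4i1, a regulatory subunit and the most abundant nuclear member in each library, had 799 CPM in PPARg-low cells and 923 CPM in PPARg-negative cells (ratio 0.865, 0.824 to 0.909). Cox6c had 600 CPM in PPARg-low cells and 497 CPM in PPARg-negative cells (ratio 1.21, 1.14 to 1.28), and Ndufa4 had 479 CPM in PPARg-low cells and 400 CPM in PPARg-negative cells (ratio 1.20, 1.12 to 1.28). Cox8a was at 1.10 (1.04 to 1.17) and Cox7c at 0.885 (0.833 to 0.940). Several complex IV subunits exist as tissue isoforms, and these Tregs held the widely expressed ones. Cox4i1, Cox6a1, Cox6b1, Cox7a2 and Cox8a had between 276 and 799 CPM in PPARg-low cells and between 313 and 923 CPM in PPARg-negative cells. Of their partners over all barcodes, Cox6a2, Cox7b2, Cox8b, Cox8c and the complex I paralogue Ndufa4l2 had 0 UMIs in each library, the lung isoform Cox4i2 had 1, the heart and muscle isoform Cox7a1 had 4 and the testis isoform Cox6b2 had 27.

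ATP synthase had 15 nuclear members, with 5765 CPM in PPARg-low cells and 5919 CPM in PPARg-negative cells (log2 ratio -0.038), and none was called. Atp5e, Atp5l and Atp5j2, small subunits of the rotor stalk and the membrane part, had 538 to 600 CPM in PPARg-low cells and 546 to 606 CPM in PPARg-negative cells, with ratios of 0.989, 0.983 and 0.984. Atp5a1, the alpha subunit of the catalytic head, was at 1.06 (0.988 to 1.14). Atp5o, which ties the head to the stator and is known as the oligomycin sensitivity protein, had 221 CPM in PPARg-low cells and 283 CPM in PPARg-negative cells (ratio 0.783, 0.713 to 0.858), and Atp5h, a stator subunit, was at 0.857 (0.802 to 0.916). Atp5g1, Atp5g2 and Atp5g3 code for the same subunit c of the rotor ring with different import sequences. Their ratios were 1.01 (0.916 to 1.11), 0.941 (0.880 to 1.01) and 1.15 (1.03 to 1.27). Atp5k, a small membrane subunit that joins ATP synthase dimers, lay on either side of 1 in the classes of cells by CPM. Its ratio was 0.761 (0.586 to 0.993) in ribosome-poor cells and 1.12, with an interval above 1, in ribosome-rich cells. With a total that leaves out mt- and ribosomal protein UMIs it was below 1 in each class.

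Cox7a2l, also called SCAFI and counted here with the related genes, was the nuclear member called lower. It had 542 CPM in PPARg-low cells and 898 CPM in PPARg-negative cells, on 1573 UMIs in PPARg-low cells and 5298 UMIs in PPARg-negative cells, a ratio of 0.603 (0.570 to 0.638). In PPARg-negative cells it was thus nearly as abundant as Cox4i1. Within ribosome-rich cells the ratio was 0.713 (0.669 to 0.759), at 687 CPM in the PPARg-low library and 965 CPM in the PPARg-negative library, and within ribosome-poor cells 0.874 (0.741 to 1.03), at 322 CPM in the PPARg-low library and 369 CPM in the PPARg-negative library, so it was not called within either class. Its paralogue Cox7a2, a complex IV subunit, was at 0.884 (0.813 to 0.961). Atp5s, also called ATP synthase factor B, was called higher at 3.05 (1.39 to 6.94), but on 18 UMIs in PPARg-low cells and 12 UMIs in PPARg-negative cells. Atp5sl, which acts in complex I assembly in human cells, was at 1.38 (0.973 to 1.94), and at 1.56 (1.02 to 2.36) in ribosome-rich cells, where it was called.

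**Figure D2:**
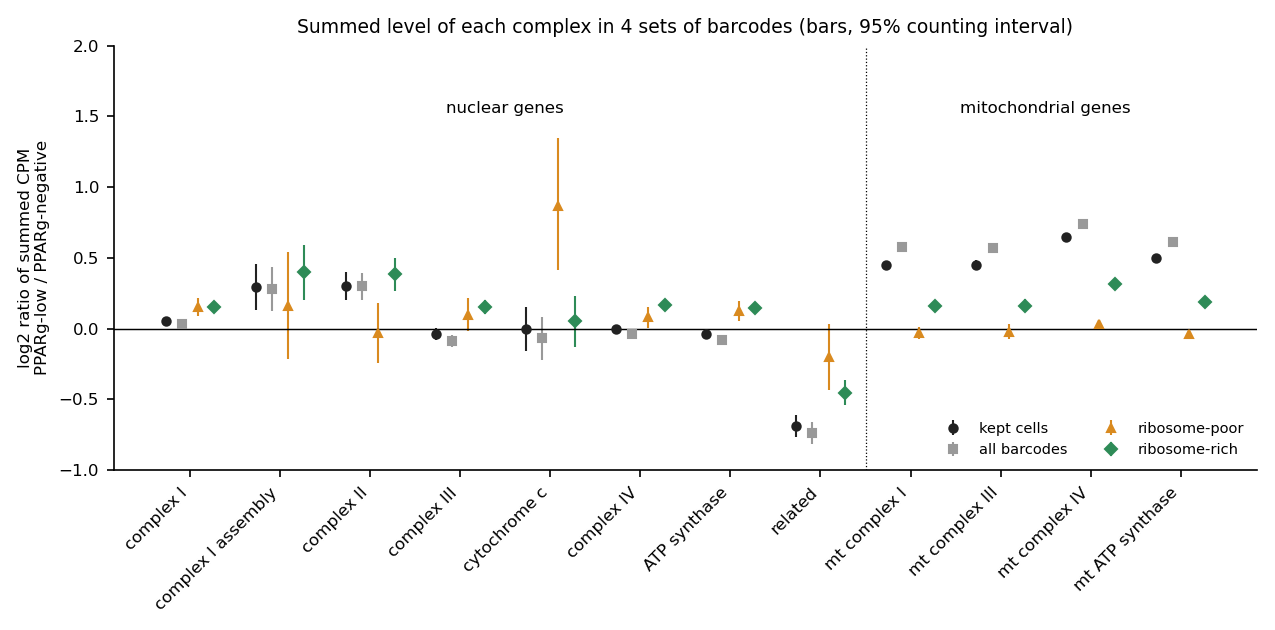
Points give the log2 ratio of the summed CPM of each complex (PPARg-low over PPARg-negative) in kept cells, all barcodes, ribosome-poor cells and ribosome-rich cells, with 95% counting intervals. The mitochondrial sums lie between 0.45 and 0.65 in kept cells and between -0.04 and 0.04 in ribosome-poor cells, and the related genes, mostly Cox7a2l, lie lowest.

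The balance of mitochondrial to nuclear transcripts differed between the libraries. Kept cells had 2.0 mitochondrial member UMIs per nuclear member UMI in the PPARg-low library and 1.35 in the PPARg-negative library. Within complex IV the figures were 4.05 in PPARg-low cells and 2.58 in PPARg-negative cells, within ATP synthase 1.62 in PPARg-low cells and 1.11 in PPARg-negative cells, within complex III 2.05 in PPARg-low cells and 1.46 in PPARg-negative cells, and within complex I 1.16 in PPARg-low cells and 0.884 in PPARg-negative cells. In ribosome-poor cells there were 3.84 mitochondrial UMIs per nuclear UMI in the PPARg-low library and 4.15 in the PPARg-negative library, and in ribosome-rich cells 1.19 in the PPARg-low library and 1.11 in the PPARg-negative library. Over all barcodes the figures were 2.53 in the PPARg-low library and 1.54 in the PPARg-negative library. Among barcodes with over 10% mt- UMIs they were 10.1 in the PPARg-low library and 10.9 in the PPARg-negative library.

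The libraries' cells also differed in spread. Kept cells with at least 750 UMIs were thinned to that number, which left out 238 PPARg-low and 239 PPARg-negative cells. Of those left out, 230 PPARg-low and 200 PPARg-negative cells were ribosome-poor, so values not split by class under-represent ribosome-poor cells. In the remaining 1381 PPARg-low cells the nuclear members held 14.1 ± 5.51 UMIs (mean ± SD over cells) and in the 2394 PPARg-negative cells 15.1 ± 4.86 UMIs. The mitochondrial members held 34.6 ± 18.1 UMIs per PPARg-low cell and 22.9 ± 14.4 UMIs per PPARg-negative cell. Median mitochondrial UMIs were 30 per PPARg-low cell and 18 per PPARg-negative cell, and median nuclear UMIs 14 per PPARg-low cell and 15 per PPARg-negative cell. The upper quartile of the mitochondrial members was 49 UMIs in PPARg-low cells and 25 in PPARg-negative cells, and the lower quartile 19 UMIs in PPARg-low cells and 14 UMIs in PPARg-negative cells. No cell lacked nuclear or mitochondrial member UMIs, and 1.88% of PPARg-low cells and 1.13% of PPARg-negative cells had none from the nuclear genes of complex I. Split by class, mean mitochondrial UMIs were 46.5 in the PPARg-low library and 47.0 in the PPARg-negative library among ribosome-poor cells, and 21.6 in the PPARg-low library and 17.8 in the PPARg-negative library among ribosome-rich cells.

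**Figure D3:**
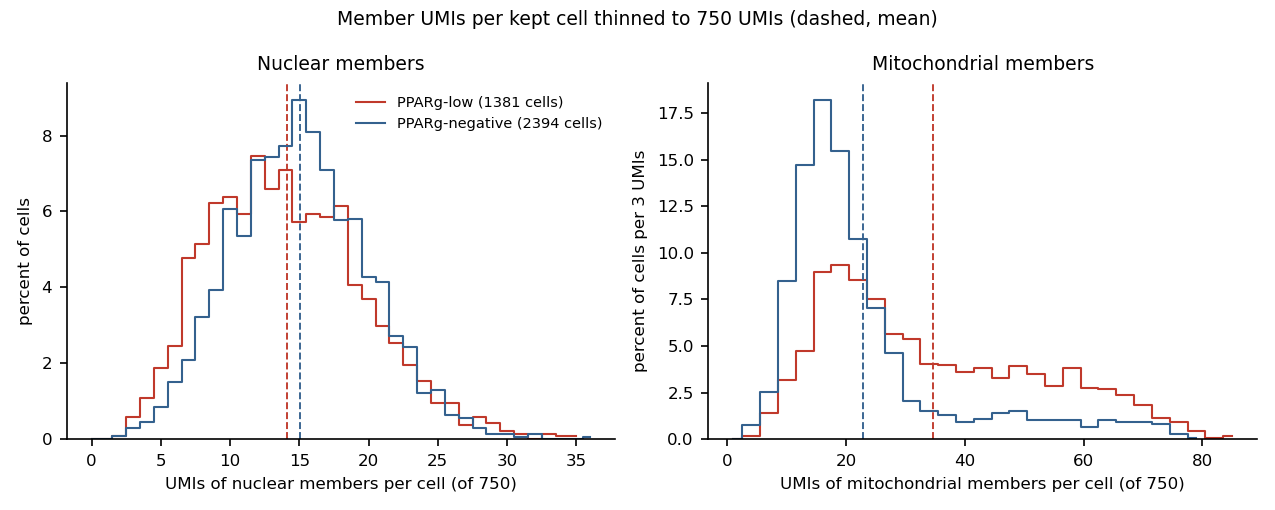
Histograms of the UMIs of the nuclear members (left) and the mitochondrial members (right) per kept cell after thinning to 750 UMIs, with dashed lines at the means, for 1381 PPARg-low and 2394 PPARg-negative cells. Nuclear members had means of 14.1 UMIs in PPARg-low cells and 15.1 UMIs in PPARg-negative cells, and the PPARg-low distribution of the mitochondrial members has a broad upper shoulder, with an upper quartile of 49 UMIs against 25 UMIs in PPARg-negative cells.

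Ribosome-poor cells held fewer nuclear and more mitochondrial member UMIs than ribosome-rich cells of the same library. Scaled per 1000000 UMIs that are neither mt- nor ribosomal, ribosome-poor cells held 0.555 times the nuclear member UMIs of ribosome-rich cells in the PPARg-low library (0.545 to 0.565) and 0.499 times in the PPARg-negative library (0.489 to 0.510). The mitochondrial members went the other way, at 1.80 times in the PPARg-low library (1.78 to 1.82) and 1.87 times in the PPARg-negative library (1.85 to 1.89). In the PPARg-low library 55 of 85 nuclear members were called lower in ribosome-poor cells and 0 higher, where 12.9% and 13.8% of genes tested were, and in the PPARg-negative library 59 and 0, where 14.1% and 19.6% were. Mitochondrial members called higher numbered 11 of 13 in the PPARg-low library and 10 of 13 in the PPARg-negative library. The median log2 difference of the nuclear members was -0.87 in the PPARg-low library and -1.0 in the PPARg-negative library, beside 0.05 in the PPARg-low library and 0.11 in the PPARg-negative library for all genes tested. The class is set by ribosomal protein UMIs and not by members, but median depth differed too, at 978 UMIs per ribosome-poor cell and 2294 UMIs per ribosome-rich cell in the PPARg-low library, and 853 UMIs per ribosome-poor cell and 2455 UMIs per ribosome-rich cell in the PPARg-negative library. Whether depth or RNA quality had a part in the difference was not tested.

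By complex, ATP synthase and complex III were among the lowest in ribosome-poor cells and complex II the least affected. ATP synthase was at 0.504 times its ribosome-rich level in the PPARg-low library and 0.453 times in the PPARg-negative library, and complex III at 0.494 times in the PPARg-low library and 0.455 times in the PPARg-negative library. Complex IV was at 0.534 times in the PPARg-low library and 0.502 times in the PPARg-negative library, complex I at 0.642 times in the PPARg-low library and 0.570 times in the PPARg-negative library, and complex II at 0.761 times in the PPARg-low library and 0.900 times in the PPARg-negative library. Cox7a2l was lower still, at 0.389 times in the PPARg-low library (0.346 to 0.438) and 0.281 times in the PPARg-negative library (0.246 to 0.320). Cycs was at 0.621 times (0.513 to 0.750) in the PPARg-low library and 0.313 times (0.232 to 0.414) in the PPARg-negative library. Complex II was uneven here too. Sdha and Sdhd were not called lower in either library, at 0.952 and 0.841 times in the PPARg-low library and 1.35 and 1.14 times in the PPARg-negative library. Sdhb was called lower in each, at 0.553 times in the PPARg-low library and 0.638 times in the PPARg-negative library. Sdhc was called lower in the PPARg-negative library alone, at 0.656 times, beside 0.869 times in the PPARg-low library. Among members with ratios below 1 between the libraries over all kept cells, Cox7a2l, Ndufb4, Ndufa6 and Uqcrh were called lower in ribosome-poor cells of each library. Of all nuclear members, 64.7% were called lower in the PPARg-low library and 69.4% in the PPARg-negative library. Cox6c, Uqcrb and Atp5g3, with ratios above 1 between the libraries, were called lower in each too. Such calls were thus not particular to members with ratios below 1. Uqcrfs1 was at 0.684 times (0.545 to 0.856) in the PPARg-low library and 0.667 times (0.534 to 0.824) in the PPARg-negative library. Each interval lay below 1, but the sizes fell just short of the limit for a call.

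The same gradient was seen without classes. Over barcodes in bins of mt- share, nuclear member UMIs per 1000000 non-mt- UMIs were 25420 (24872 to 25976) in PPARg-low barcodes and 22250 (22014 to 22489) in PPARg-negative barcodes where mt- UMIs were under 2%. In the bin of 4 to 6% they were 18266 in PPARg-low barcodes and 18230 in PPARg-negative barcodes, and in the bin of 8 to 10% they were 14686 (14204 to 15181) in PPARg-low barcodes and 13380 (12813 to 13967) in PPARg-negative barcodes. At 15% or more they were 15991 in 67 PPARg-low barcodes and 15766 in 42 PPARg-negative barcodes. Median depth was lower in the same bins, at 797 UMIs per PPARg-low barcode and 763 UMIs per PPARg-negative barcode at 8 to 10%, and its part in the gradient was not tested. By ribosomal protein share, kept cells with 5 to 10% had 13824 nuclear member UMIs per 1000000 non-mt- UMIs in the PPARg-low library and 12240 in the PPARg-negative library, and those with 20 to 25% had 24630 in the PPARg-low library and 24727 in the PPARg-negative library. At 40% or more the level was lower again, at 21830 in the PPARg-low library and 20562 in the PPARg-negative library. That total holds ribosomal protein UMIs. With these left out too, cells at 40% or more had 39713 in the PPARg-low library and 37724 in the PPARg-negative library.

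**Figure D4:**
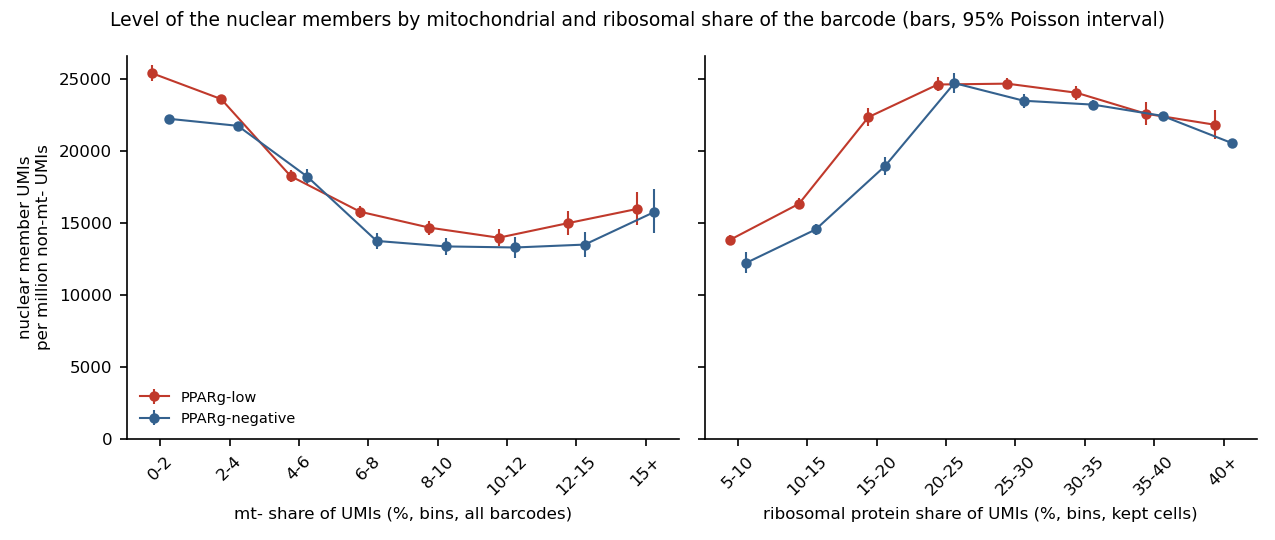
Nuclear member UMIs per 1000000 non-mt- UMIs, with 95% Poisson intervals, by mt- share over all barcodes (left) and by ribosomal protein share over kept cells (right), for PPARg-low and PPARg-negative cells. Levels lie at 25420 in PPARg-low and 22250 in PPARg-negative barcodes under 2% mt- UMIs, at 14686 in PPARg-low and 13380 in PPARg-negative barcodes in the bin of 8 to 10%, and are lower under 15% ribosomal protein UMIs than above 20%.

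To compare like cells, kept cells were clustered without members, other mt- genes, ribosomal, immunoglobulin and T cell receptor genes, and clusters were compared where each library had 50 or more cells. This left 5 of 11 clusters, of which 2 had 3 or more effector Treg markers among their leading 10 genes. Cluster 1, effector Treg-like with Il10, Lag3 and Ccr8, held 544 PPARg-low and 55 PPARg-negative cells, nearly all of them ribosome-poor (96.1% of the PPARg-low cells and 98.2% of the PPARg-negative cells). Its nuclear members had 15920 CPM (15621 to 16225) in PPARg-low cells and 14012 CPM (13036 to 15042) in PPARg-negative cells, and its mitochondrial members 62617 CPM in PPARg-low cells and 65697 CPM in PPARg-negative cells. Cluster 8, effector Treg-like with Gzmb, Ccr2 and Itgae, held 135 PPARg-low and 119 PPARg-negative cells. There the nuclear members had 18261 CPM (17736 to 18797) in PPARg-low cells and 17687 CPM (17130 to 18256) in PPARg-negative cells, and the mitochondrial members 39660 CPM in PPARg-low cells and 39736 CPM in PPARg-negative cells.

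The other clusters had too few fixed markers for a name. Cluster 4, led by Cxcr3 and Itgb1, was nearly all ribosome-poor, with 12563 nuclear CPM in 149 PPARg-low cells and 12801 in 344 PPARg-negative cells. Its mitochondrial members had 66410 CPM in PPARg-low cells and 68820 CPM in PPARg-negative cells. Cluster 6, led by Plac8 and Evi2a, had 22101 nuclear CPM in 141 PPARg-low cells and 21955 in 218 PPARg-negative cells. Its mitochondrial members had 26028 CPM in PPARg-low cells and 25125 CPM in PPARg-negative cells. Cluster 7, led by Tbc1d4 and Nr4a1, had 23871 nuclear CPM in 126 PPARg-low cells and 23079 in 138 PPARg-negative cells. Its mitochondrial members had 34748 CPM in PPARg-low cells and 28362 CPM in PPARg-negative cells. Across the 5 clusters the log2 ratio ran from -0.027 to 0.18 for the nuclear members (median 0.046) and from -0.07 to 0.29 for the mitochondrial members (median -0.0027), beside 0.56 for the mitochondrial sum over all kept cells. Among the PPARg-low cells of these clusters the mitochondrial sum ranged from 26028 to 66410 CPM. Resting Treg-like clusters 3 and 5 held 10 and 7 PPARg-low cells, against 488 and 456 PPARg-negative cells, so no comparison was made there. Their PPARg-negative cells had 20980 and 20373 nuclear CPM and 23705 and 23075 mitochondrial CPM. Effector Treg-like cluster 2, with 468 PPARg-low and 41 PPARg-negative cells, was also under the minimum. Its PPARg-low cells had 22560 nuclear CPM and 32044 mitochondrial CPM, and 24.6% of them were ribosome-poor. The cycling cluster held 14 PPARg-low and 11 PPARg-negative cells, under the minimum.

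Other mitochondrial gene lists were counted the same way in kept cells, where 24.4% of all genes tested were called higher and 4.42% lower and the median log2 ratio was 0.29. Each list is shown by its highest and lowest gene, where genes under 100 UMIs were passed over and the rank went by the end of the interval closer to 1. TCA cycle enzymes had a median log2 ratio of 0.34 over 13 genes, with 2 called higher and 0 lower. Fumarate hydratase Fh1, which works next to complex II in the cycle, had 44.8 CPM in PPARg-low cells and 27.1 CPM in PPARg-negative cells (ratio 1.65, 1.30 to 2.09), Idh3a, a subunit of isocitrate dehydrogenase, was the other at 1.56 (1.28 to 1.91), and Suclg1 was lowest in rank at 0.962 (0.826 to 1.12). In ribosome-poor cells 0 of the 13 were called and the median was -0.00016, with Fh1 at 1.22 (0.770 to 1.96) and Idh3a at 0.929 (0.621 to 1.41), and in ribosome-rich cells Fh1 was at 1.56 (1.14 to 2.1) and Idh3a at 1.75 (1.37 to 2.22). Genes of mitochondrial transcription and biogenesis had a median of 0.24 over 20 genes, with 4 called higher (Gabpb1, Esrra, Mterf4 and Mterf1a) and 1 lower (Ppargc1b). Gabpb1, a subunit of the GABP factor that binds respiratory gene promoters, had 68.6 CPM in PPARg-low cells and 33.2 CPM in PPARg-negative cells (ratio 2.06, 1.69 to 2.53), and was called in each class, at 1.84 (1.17 to 2.97) in ribosome-poor and 2.03 (1.59 to 2.59) in ribosome-rich cells. Esrra, a nuclear receptor of energy metabolism, was at 1.72 (1.26 to 2.36) but at 0.893 (0.502 to 1.62) in ribosome-poor cells, and Ppargc1b, a coactivator of such receptors, at 0.469 (0.200 to 0.984) on 9 UMIs in PPARg-low cells and 39 UMIs in PPARg-negative cells. Slirp, which stabilises mitochondrial mRNAs, was at 0.919 (0.782 to 1.08), and Tfam, which packages and transcribes mitochondrial DNA, at 1.17 (0.972 to 1.41).

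Assembly factors of complexes III to V had a median of 0.22 over 25 genes, with 2 called higher (Ttc19 and Sco1) and 1 lower (Cox16). Ttc19, which acts on the Rieske protein in complex III, was at 1.68 (1.37 to 2.06) but was called in neither class, at 1.19 (0.844 to 1.71) in ribosome-poor and 1.36 (1.02 to 1.79) in ribosome-rich cells, while Uqcc3, another complex III factor, was at 0.778 (0.683 to 0.886). The 76 mitochondrial ribosomal protein genes had a median of 0.04, with 3 called higher and 0 lower. Mrps6 was highest in rank at 1.69 (1.41 to 2.02) and Mrpl30 lowest at 0.674 (0.593 to 0.764). The 23 import genes had a median of 0.09 with none called, Timm8b highest in rank and Tomm20 lowest at 0.795 (0.730 to 0.865). The 13 carriers, uncoupling and defence genes had a median of 0.19 with none called. In that list Atpif1, the inhibitor of ATP synthase, had 173 CPM in PPARg-low cells and 122 CPM in PPARg-negative cells (ratio 1.42, 1.27 to 1.60), and Usmg5, a small ATP synthase subunit outside the prefixes, was at 0.869 (0.794 to 0.950).

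Promoters were read for the 70 nuclear members with an entry. The NRF1 core motif, searched on each strand like the motifs below, was found in 19 of them (27.1%), against 5.19% of 27025 genes with a promoter of the same length. The YY1 motif AAGATGGCG was found in 10% of member promoters and 1.64% of all promoters, and the GABP motif CCGGAAGT in 7.14% and 4.31%. The 27025 genes were not limited to the genes tested, while every member reached the UMI minimum. Shares over the genes tested alone were not counted. The direct repeat of AGGTCA with any base between the copies, the element that PPARg binds with its partner RXR, was found in 0 member promoters and in 0.0481% of all promoters. Only exact matches were counted, and 13 of 27025 genes had one. A count of 0 among 70 members therefore cannot tell whether they hold or lack such elements. The 19 members with an NRF1 match had a median log2 ratio of -0.049 in kept cells and the 51 without one of 0.012. In ribosome-poor cells the medians were 0.16 with a match and 0.17 without, and in ribosome-rich cells 0.15 and 0.19.

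Cells of other kinds were looked for through their markers. B cell genes summed to 555 CPM in PPARg-low cells and 154 CPM in PPARg-negative cells, of which Cd74 alone held 520 CPM in PPARg-low cells and 121 CPM in PPARg-negative cells. Myeloid genes summed to 282 CPM in PPARg-low cells and 149 CPM in PPARg-negative cells, of which Cst3 alone held 268 CPM in PPARg-low cells and 145 CPM in PPARg-negative cells, with Csf1r at 0 in the PPARg-negative library. Platelet genes were at 0 in each library, and erythroid, NK and CD8 T cell genes summed to 12.1, 7.24 and 31.0 CPM in PPARg-low cells and to 1.70, 1.53 and 27.6 CPM in PPARg-negative cells. Of the lists for Treg states, effector genes summed to 6372 CPM in PPARg-low cells and 1163 CPM in PPARg-negative cells, and resting genes to 775 CPM in PPARg-low cells and 2586 CPM in PPARg-negative cells. Cycling genes summed to 4062 CPM in PPARg-low cells and 1771 CPM in PPARg-negative cells (H2afz alone 3037 CPM in PPARg-low cells and 1045 CPM in PPARg-negative cells). Interferon genes summed to 2764 CPM in PPARg-low cells and 2272 CPM in PPARg-negative cells (Ifi27l2a alone 1982 CPM in PPARg-low cells and 1519 CPM in PPARg-negative cells). Single interferon genes went both ways, with ratios of 0.317 for Ifit3 and 0.335 for Usp18 but 1.24 for Bst2 and 1.30 for Isg20. The part of these cells and states in the member ratios was not tested, beyond the comparison within clusters above.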

How the data were processed

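Tregs were profiled with 10x Chromium 3′ v2 libraries, 1 per group. The deposited matrices hold UMI counts per gene and barcode, made by the authors with Cell Ranger 2.1.0 on mm10, per the submitters' processing notes. The annotation used for counting is not given in the sources used here. UMIs were summed per library, scaled to CPM and compared as PPARg-low over PPARg-negative ratios with exact conditional binomial 95% intervals. Levels are counts of 3′ ends and were not divided by transcript length.

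Members and gene lists were chosen with earlier results of these data known. The text names all mitochondrial members, the Sdh genes, Cycs, tissue isoforms and every called member. In each complex it also draws on the 3 most abundant members and, among those with 100 or more UMIs, the 2 highest and 2 lowest by the interval bound nearest to 1. Atp5k, Tfam, the called genes of the other lists and the choice of Timm8b as a neighbour of Sdhd were added after their values were seen.

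Cells were clustered with scanpy 1.11.5 (Leiden, resolution 1) on genes other than members, mt-, ribosomal, immunoglobulin and T cell receptor genes, and a cluster was given a name from 3 or more listed markers among its leading genes. Scrublet marked 11 PPARg-low and 9 PPARg-negative kept cells as doublets (0.679% and 0.342%). They were kept in, and left out as an alternative. Of the barcode sequences 5 occurred in both libraries, 4 of them among kept cells. Alternatives covered the cells used, the total, the weight of cells, depth, the UMI minimum, the size called and the resolution. Promoters came from RefSeq (GRCm38.p6) and gene positions from GENCODE M21 on mm10, where 28339 of 28692 genes were found. Software versions were scipy 1.17.1 for the intervals, pandas 2.3.3 with numpy 2.4.6 for the sums and matplotlib 3.10.9 for the plots, under Python 3.11.15.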

Additional observations from a re-analysis of the deposited data

Results flagged for a closer look

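Atp5k, which codes for a small membrane subunit of ATP synthase, was picked out of the 85 nuclear members. It was the member whose counting intervals in CPM lay on opposite sides of 1 in the classes of cells. Its log2 ratio of PPARg-low over PPARg-negative cells was -0.39 in ribosome-poor cells, on 138 PPARg-low and 103 PPARg-negative UMIs. It was 0.17 in ribosome-rich cells, on 456 PPARg-low and 1217 PPARg-negative UMIs. The difference between the classes was not tested.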

How the results depend on the processing

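In kept cells the log2 ratio of the nuclear members was -0.016 summed and 0.012 as a median, and that of the mitochondrial members 0.56 summed and 0.47 as a median, with 2 nuclear members called higher, 1 lower and 2 mitochondrial members higher. In each setting below the nuclear sum and median are given first and the mitochondrial sum and median after them. Over all barcodes they were -0.049, -0.013, 0.66 and 0.59, with 7 mitochondrial members called higher. With 5% or less mt- UMIs they were 0.096, 0.13, 0.25 and 0.19, with 4 nuclear members higher, 0 lower and 0 mitochondrial members higher. With 500 or more genes they were 0.0084, 0.040, 0.54 and 0.44. With a total that leaves out mt- and ribosomal protein UMIs they were -0.27, -0.25, 0.30 and 0.22, and set against the all-gene median -0.30, -0.28, 0.27 and 0.18, each with 1 nuclear member higher, 5 lower and 0 mitochondrial members higher. With cells weighted equally the sums were -0.13 and 0.57 and the nuclear median -0.098, with 3 nuclear members lower. Thinned to 750 UMIs they were -0.090, -0.054, 0.60 and 0.51, with 2 nuclear members lower. In ribosome-poor cells they were 0.11, 0.16, 0.0020 and -0.021, with 1 nuclear member higher, 0 lower and 0 mitochondrial members higher. In ribosome-rich cells they were 0.14, 0.18, 0.24 and 0.21, with 5 nuclear members higher, 0 lower and 0 mitochondrial members higher. With 100 or more UMIs 1 nuclear member was called higher. With a smaller ratio as the limit for a call there were 8 nuclear members higher, 5 lower and 10 mitochondrial members higher. With a ratio of 2 there were 1, 0 and 0. Shares of all genes tested called at these other limits are not given. Nor are they given for 5% or less mt- UMIs, cells weighted equally, thinned cells or 100 or more UMIs. Counts of called members in those settings therefore cannot be set against all genes tested, and nothing specific to members is read from them. At Leiden resolution 0.5 the median over 3 clusters was 0.034 for the nuclear members and 0.15 for the mitochondrial members, against 0.046 and -0.0027 over 5 clusters. Of 144 alternative values for single complexes 77 moved beyond the counting interval of the value in kept cells. Leaving out doublets changed no count of calls over the nuclear or mitochondrial members, and leaving out shared barcodes changed 1, to 3 mitochondrial members called higher. The cause of these shifts was not tested.

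No paired analysis was possible because each group had 1 library. For the same reason no test was made, and separate mice cannot be told apart within a pool. Intervals cover counting error only. Atp5s was called on 18 UMIs in PPARg-low cells and 12 UMIs in PPARg-negative cells, so its ratio is loosely bounded. Less RNA per cell and fewer cells of a state cannot be told apart in the sums over a library, and depth limits what can be said of mt-Nd6 and the assembly factors.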
